A study of Drosophila melanogaster with 2 samples.

Results

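Of 1301 Dan peaks on the 7 chromosome arms, 209 (16.1%) had their summit between the start sites of 2 protein-coding genes that point away from each other. Members were found from the position of the summit alone. A summit was kept where a start site on the minus strand lay to its left and a start site of another gene on the plus strand lay to its right, both within 1000 bp, using every annotated transcript of Release 6 of the Drosophila genome. A further 95 of the 1396 peaks in the list lie on other sequences and were not used. The 209 summits fell between 207 pairs of starts and 414 genes, since the DnaJ-H/Sirt1 and cnn/Golgin97 pairs hold 2 overlapping peaks each. Peaks near a start but outside the rule numbered 363 and are called single-start peaks here, and the other 729 peaks lay over 1000 bp from any protein-coding start.

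Whole Drosophila melanogaster embryos of the dan-GFP strain, 0 to 8 h old, were assayed by ChIP-seq in 2 biological replicates that form 1 group. The flies carry an insertion that targets dan and express Dan fused to eGFP, which was precipitated through its GFP part from chromatin sonicated to 200 to 800 bp. Embryos of this age span hold many cell types, the driver of the fusion is not given in the labels, and untagged or mutant embryos were not analysed here. Depth of the libraries is unknown from the lists, so the intervals below cover counting of regions only.

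Dan, the product of distal antenna, is a nuclear protein with a DNA-binding domain of the Pipsqueak type and is known for roles in antennal and eye development and in the temporal competence of embryonic neuroblasts. In flies many neighbouring genes are arranged head to head with a short shared upstream stretch, and many such pairs are broadly expressed housekeeping genes. Their promoters often carry core elements such as the DRE, bound by DREF, and Motif 1, bound by M1BP, while GAGA repeats bound by Trl are frequent at developmentally regulated promoters.

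The shared upstream stretch of 5 of the strongest members shows how short these regions can be and what lies around the summit. Each sequence runs on the plus strand from the base after the left gene's start to the base before the right gene's start, from the RefSeq Release 6 sequence. Capitals mark short strings on either strand that are counted further on. They are AGGGG, the string CTACNCC, the string AAATTAAT and the Motif 7 core, which is CATCNCTA, with N any base. The summit is base 103 of the CG7601/CIA30 stretch (chr3R:29736746-29736964), base 101 of Tcs5/CHMP2B (chr3L:5139396-5139618), base 130 of Art3/mRpS10 (chr3R:15229409-15229664), base 123 of Atat/Shc (chr3L:9426759-9427009) and base 134 of CG3437/CG3552 (chr3L:9457670-9457911), counted from the left end.
CG7601/CIA30: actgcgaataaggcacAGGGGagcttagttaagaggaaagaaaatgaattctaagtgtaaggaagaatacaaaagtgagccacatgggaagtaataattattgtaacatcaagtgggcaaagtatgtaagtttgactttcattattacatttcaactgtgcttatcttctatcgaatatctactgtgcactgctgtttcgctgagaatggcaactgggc
Tcs5/CHMP2B: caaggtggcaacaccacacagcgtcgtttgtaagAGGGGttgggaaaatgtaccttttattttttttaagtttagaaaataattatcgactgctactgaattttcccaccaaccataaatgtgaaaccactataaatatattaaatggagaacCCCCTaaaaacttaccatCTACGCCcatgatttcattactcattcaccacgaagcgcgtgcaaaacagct
Art3/mRpS10: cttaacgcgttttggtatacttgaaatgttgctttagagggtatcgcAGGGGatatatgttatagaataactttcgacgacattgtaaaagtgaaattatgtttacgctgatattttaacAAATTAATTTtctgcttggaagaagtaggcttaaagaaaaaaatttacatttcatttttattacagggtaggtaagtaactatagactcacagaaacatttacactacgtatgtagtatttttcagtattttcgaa
Atat/Shc: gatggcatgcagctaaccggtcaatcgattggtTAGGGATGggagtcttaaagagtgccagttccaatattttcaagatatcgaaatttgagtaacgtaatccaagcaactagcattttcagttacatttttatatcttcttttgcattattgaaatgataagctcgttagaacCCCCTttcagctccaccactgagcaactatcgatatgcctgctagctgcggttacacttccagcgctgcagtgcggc
CG3437/CG3552: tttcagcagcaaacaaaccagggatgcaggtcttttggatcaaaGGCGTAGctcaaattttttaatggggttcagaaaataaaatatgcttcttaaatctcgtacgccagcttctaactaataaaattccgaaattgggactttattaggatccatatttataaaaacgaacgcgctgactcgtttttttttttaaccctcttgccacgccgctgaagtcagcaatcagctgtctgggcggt
In all 5 the summit is near the middle of the stretch. The capitals lie to its side, except for AAATTAAT in Art3/mRpS10, whose marked stretch of 2 overlapping matches ends on the summit base. These 5 do not stand for all strong members. At Reps/l(2)gd1, with a signal of 432, the starts were 198 and 100 bp from the summit. Its stretch held 0 matches of the marked strings. At Ugalt/eIF2Bbeta the starts were 47 and 672 bp away.

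Regions between divergent starts passed the threshold of the list more often than other regions the authors ranked. Under the divergent rule 209 of 1132 ranked regions passed (18.5%), against 1.59% of 22813 regions near a single start and 0.706% of 103196 regions away from starts. Outside the rule as a whole the share was 0.867%, and over all 127141 ranked regions on the arms it was 1.02%. Regions under the rule were 0.89% of those ranked, and 16.1% of those that passed. The members were spread over the autosomes at 17.3% of peaks on 2L, 16.6% on 2R, 18.6% on 3L and 17.0% on 3R. On X they made up 25 of 237 peaks (10.5%, 95% exact interval 6.94% to 15.2%). Of 6 peaks on Y none was a member, and chromosome 4 held no peak.

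Most members lay between neighbouring protein-coding starts, and most summits were intergenic. In 165 of 209 both starts were the nearest protein-coding starts on their side of the summit, and in the other 44 another protein-coding start lay between. The summit was intergenic in 137 members, in an intron in 39 and in a noncoding part of an exon in 33. It was in a coding exon in 0 of 209, which allows a share of up to 1.44%. An annotated exon lay between the starts of 66 members (31.6%), and a noncoding gene between those of 10.

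Signal is the authors' peak caller value for a region, and its scale is not stated, so it is used here to rank peaks within a list. The strongest member lay between CG7601 and CIA30, a complex I assembly factor, with a signal of 844 in the list of both replicates, 551 in replicate 1 and 311 in replicate 2. Its 2 starts were 103 and 117 bp from the summit. Next came Ugalt/eIF2Bbeta, a nucleotide sugar transporter gene beside a gene for a subunit of the exchange factor of eIF2, with 789 in the list, 404 in replicate 1 and 392 in replicate 2. Its summit was off centre, with starts 47 and 672 bp away. Chro/Ssl1, which pairs the genes of the chromodomain protein Chromator and of a TFIIH subunit, had 787 in the list, 409 in replicate 1 and 387 in replicate 2. Tcs5/CHMP2B, a tRNA-modification gene beside an ESCRT-III gene, had 764 in the list, 432 in replicate 1 and 358 in replicate 2. Both replicates placed these members within the top 1 percent of their own ranked regions. Most listed peaks rank as high, since the median percentile over peaks on the arms with a region was 99.3 in each replicate.

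Art3/mRpS10, an arginine methyltransferase gene beside a mitochondrial ribosomal protein gene, had a signal of 717 in the list, 447 in replicate 1 and 274 in replicate 2. Atat/Shc, which pairs a tubulin acetyltransferase with an adaptor of receptor tyrosine kinases, had 664, with 386 in replicate 1 and 282 in replicate 2. mRpS23/CenG1A had 625, with 376 in replicate 1 and 249 in replicate 2. After these 7 the signal stepped down to 479. The rest of the top 20 ran down to 351 at fws/Lamtor3, a gene pair of a Golgi tethering subunit and a lysosomal signalling subunit. Among them were PNPase/Gprk2, mRpL23/CG9004, Pdrg1/Pal1, Reps/l(2)gd1, Mppe/pds5, mRpL41/CG8079, CG3437/CG3552, CG5757/CG5098, DUBAI/Tmem18, CG13390/CG17294 and CG10147/Bulli. Of the 414 genes, 128 have only a CG number as symbol.

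Members were stronger than peaks away from starts, and stood only a little above single-start peaks. Their median signal was 120 (quartiles 88.3 and 201, range 24.8 to 844), against 110 (78.9 and 177) for the 363 single-start peaks and 85.7 (70.9 and 120) for the 729 peaks away from starts. The order was the same within each replicate. The medians were 68.6, 64.2 and 49.9 in replicate 1 and 54.8, 49.9 and 41.9 in replicate 2, for members, single-start peaks and peaks away from starts. The ranges of all 3 classes overlap widely. With the peaks on the arms cut by signal into 5 blocks of 260 or 261, members took 26.1% of the strongest block, then 18.1%, 18.8% and 11.2%, and 6.15% of the weakest. Single-start peaks took 37.5% of the strongest block, then 33.5%, 24.2% and 20%, and 24.2% of the weakest. Their share was thus also highest in the strongest block. Members, which were 16.1% of all peaks on the arms, made up 8 of the 20 strongest peaks and 31 of the 100 strongest.

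Each replicate also has its own thresholded list. That of replicate 1 held 168 of 209 members (80.4%, interval 74.3% to 85.5%), 73.6% of single-start peaks, 55.7% of peaks away from starts and 64.6% of all peaks on the arms. That of replicate 2 held 118 of 209 members (56.5%, 49.4% to 63.3%), 46.0% of single-start peaks, 31.7% of peaks away from starts and 39.7% of all peaks. The conservative list of both replicates held 88.5% of members, 76.3% of single-start peaks, 70.4% of peaks away from starts and 74.9% of all peaks. Both replicates' lists held 107 members, 61 were in that of replicate 1 only, 11 in that of replicate 2 only and 30 in neither. All 209 had a ranked region in replicate 1, and 6, with signals of 72.5 to 209 in the list, had none in replicate 2. Across the 203 members with a region in both, the signals had a Spearman correlation of 0.75, against 0.74 over 338 single-start peaks and 0.44 over 688 peaks away from starts. These correlations describe regions of 1 pair of libraries that share the peak selection, and regions are not replicates.

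**Figure D1:**
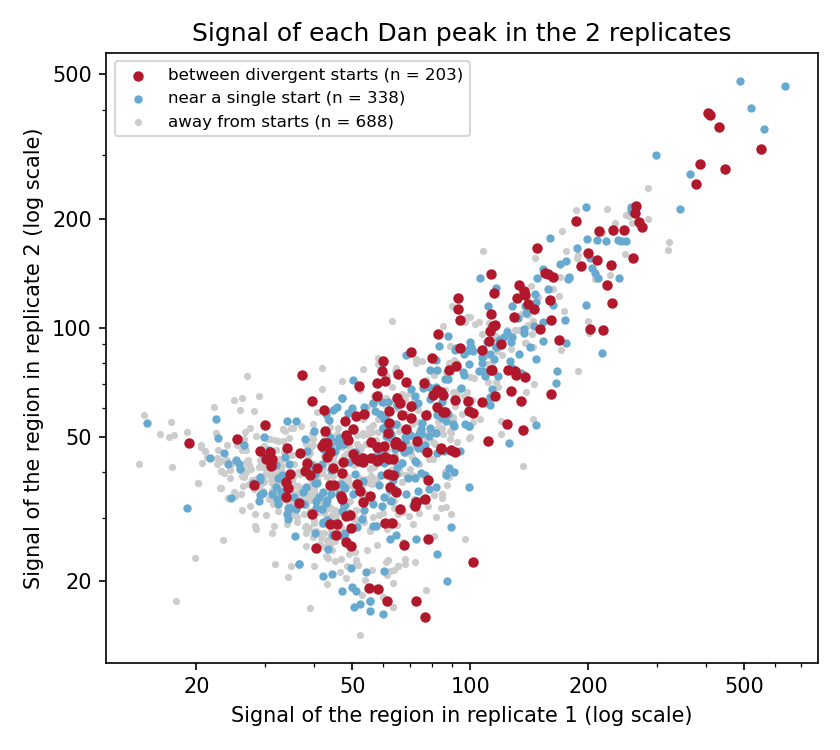
Signal of each peak in replicate 1 (x, log scale) and replicate 2 (y, log scale) for peaks between divergent starts, near a single start and away from starts, 1 point per peak with a region in both replicates. The strongest divergent-start peaks are high in both replicates, with CG7601/CIA30 at 551 in replicate 1 and 311 in replicate 2, and the classes overlap at low signal.

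The median percentile of members was 99.5 in each replicate, so members strong in both can differ little by percentile. Among the 203 members with a region in both replicates, the 3 with the largest difference of signal percentile in each direction were below the members' median signal. Of those higher in replicate 1, CG11309/CG7632 had 72.8 in replicate 1 and 17.6 in replicate 2. 140up/Polr2B, which holds a gene for a subunit of RNA polymerase II, had 61.2 in replicate 1 and 17.7 in replicate 2. In the other direction CG7246/HP1b had 19.2 in replicate 1 and 48.1 in replicate 2, CG8841/garz had 25.3 and 49.3, and tamo/Zfrp8 had 29.1 and 45.6. With the members cut by signal into 4 blocks of 52 or 53, 96.2% of the strongest block were in the list of replicate 2, then 84.6% and 30.8%, and 13.5% of the weakest. The 3 strongest members in neither own list were CCHa1-R/eIF3c at 102 in replicate 1 and 58.3 in replicate 2, GCS2beta/CG5131 at 61.8 and 39.5, and MED30/Rev1 at 43.0 and 48.1.

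The distance of the summit to both starts is limited by the rule and by the length of the gap. The nearer start was a median of 109 bp away (quartiles 88 and 138) and the farther one 200 bp (147 and 323). In 128 of 209 members (61.2%, interval 54.3% to 67.9%) the nearer start was 75 to 150 bp from the summit. The same held for 24.6% (21.8% to 27.5%) of the 915 ranked regions under the divergent rule that did not pass the threshold and overlapped no listed peak, called weaker regions here, and for 14.3% of single-start peaks. The weaker regions lay in longer gaps, with a median of 728 bp between starts, against 300 bp for members, and had a median signal of 21.3. Within gaps of 200 to 299 bp the share at 75 to 150 bp was 86.8% of 91 members (78.1% to 93.0%) and 61.5% of 96 weaker regions (51.0% to 71.2%). Within gaps of 300 to 599 bp it was 54.2% of 72 members (42.0% to 66.0%) and 40.9% of 235 weaker regions (34.5% to 47.4%), and in gaps of 600 bp or more 24.2% of 33 members (11.1% to 42.3%) and 12.4% of 539 weaker regions (9.76% to 15.5%), intervals that overlap. A summit in a gap of 200 to 299 bp cannot be much over 150 bp from the nearer start, so gap length sets part of these shares. The left start was nearer in 98 members, the right start in 110 and the 2 were level in 1.

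The place of the summit within the gap varied with the length of the gap. Members in gaps of 200 to 299 bp had their summit a median of 25.5 bp from the midpoint, against 39.3 bp for weaker regions in such gaps. In gaps of 300 to 599 bp the medians were 62.5 bp for members and 103 bp for weaker regions. In gaps of 600 bp or more the order was reversed, at 224 bp for 33 members (quartiles 129.5 and 309) and 180 bp for 539 weaker regions (86.5 and 280). The nearer start was there a median of 196 bp from the summit in members, against 338 bp in weaker regions. In the shorter gaps it was farther in members, at 98 against 86 bp (200 to 299 bp) and 126 against 106 bp (300 to 599 bp). As gaps lengthened, so did the distance in members, with a median to the nearer start of 26, 93, 101, 117, 160 and 196 bp in gaps of under 200, 200 to 249, 250 to 299, 300 to 399, 400 to 599 and 600 bp or more.

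**Figure D2:**
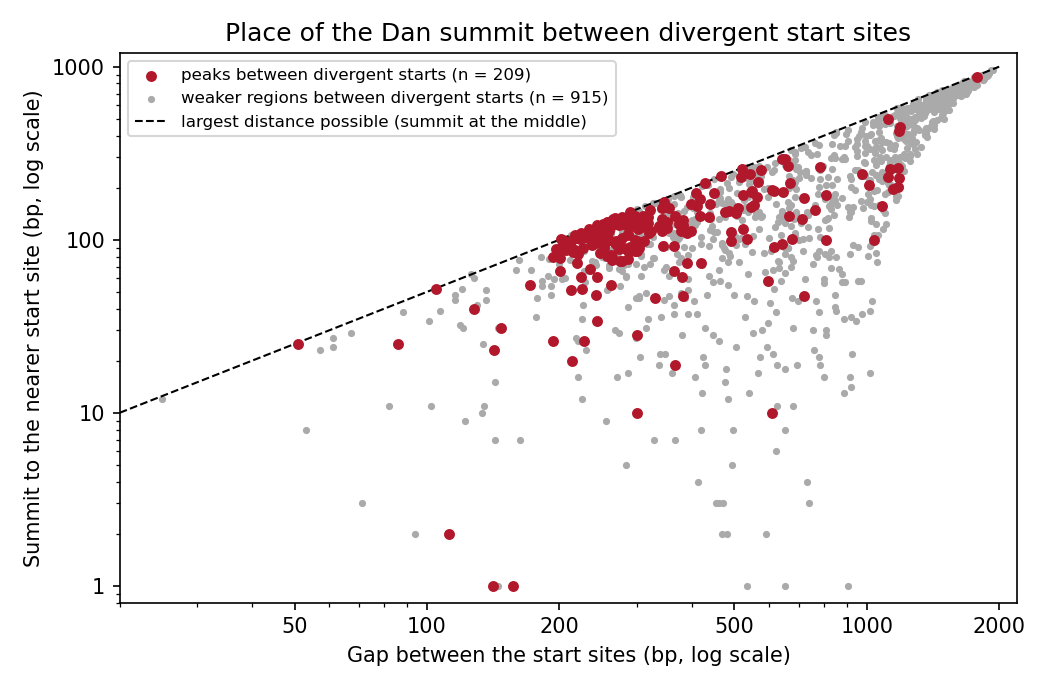
Distance from the summit to the nearer start site (y, log scale) against the length of the gap between the starts (x, log scale), for 209 divergent-start peaks and 915 weaker regions under the same rule, with the dashed line where the summit is in the middle. Members crowd along the line at gaps of 200 to 299 bp, where their median distance to the middle is 25.5 bp.

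The shortest gap with a member was the 51 bp between CG32022 and CG6511. Its peak had a signal of 216, with 114 in replicate 1 and 101 in replicate 2. CG10747/Pyroxd1 had 86 bp and a signal of 193, and CG4049/CG3253 had 105 bp and a signal of 120. The longest was Tengl1/CG4267 with 1784 bp, where the summit lay 868 and 917 bp from the starts and the signal was 67.1, with 40.5 in replicate 1 and 24.7 in replicate 2. Amun/prtp had 1190 bp and a signal of 120, and cnn/Golgin97 had 1185 bp and signals of 111 and 24.8 at its 2 peaks, which share 1 region in each replicate. DnaJ-H/Sirt1 had signals of 104 and 57.5 at its 2 peaks, likewise from 1 region per replicate.

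Just inside the limit of 1000 bp were Hmt4-20/SkpA with the farther start at 974 bp and a signal of 91.1, cnn/Golgin97 at 960 bp and 111, and alc/CG8788 at 953 bp and 301. Just outside were CG31174/CG31431 at 1013 bp with a signal of 209, Keap1/kuk at 1053 bp with 82.8, and cnk/l(2)k01209 at 1068 bp with 189. A limit of 2000 bp would add 31 peaks.

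The share of gaps with a peak was highest at lengths of 200 to 299 bp. The annotation has 2906 gaps of up to 2000 bp between neighbouring minus and plus starts of different protein-coding genes, and 172 of them (5.92%) held a peak summit. Of the members, 165 lie in these gaps. Among gaps of 200 to 249 bp 31 of 228 held a summit (13.6%, interval 9.43% to 18.7%), and among those of 250 to 299 bp 44 of 291 (15.1%, 11.2% to 19.8%). Below 200 bp the shares were 0.481% (0 to 99 bp), 2.50% (100 to 149 bp) and 2.78% (150 to 199 bp). Above 299 bp they were 8.87% (300 to 399 bp), 5.59% (400 to 599 bp), 3.15% (600 to 999 bp) and 3.80% (1000 to 2000 bp).

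In the own list of each replicate the shares were also highest at these lengths. Replicate 1 had a summit in 12.3% and 13.4% of gaps of 200 to 249 and 250 to 299 bp, against 2.08% at 150 to 199 bp and 7.53% at 300 to 399 bp. Replicate 2 had 7.46% and 11.0%, against 0.694% and 3.76%. Ranked regions of any strength were also rare in gaps under 200 bp, at 2.88%, 13.5% and 11.8% of gaps in the 3 classes, but varied little from 200 to 999 bp. From 200 bp on their shares were 31.1%, 30.9%, 29.6%, 28.6% and 32.0% of gaps in the 5 classes up to 999 bp and 61.8% at 1000 to 2000 bp. Of gaps with a ranked region, 43.7% and 48.9% held a peak at 200 to 249 and 250 to 299 bp, against 6.15% at 1000 to 2000 bp. On X 16 of 460 gaps held a peak (3.48%, 2.00% to 5.59%), and on the 4 large autosomal arms the share was 5.39% to 6.78%.

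**Figure D3:**
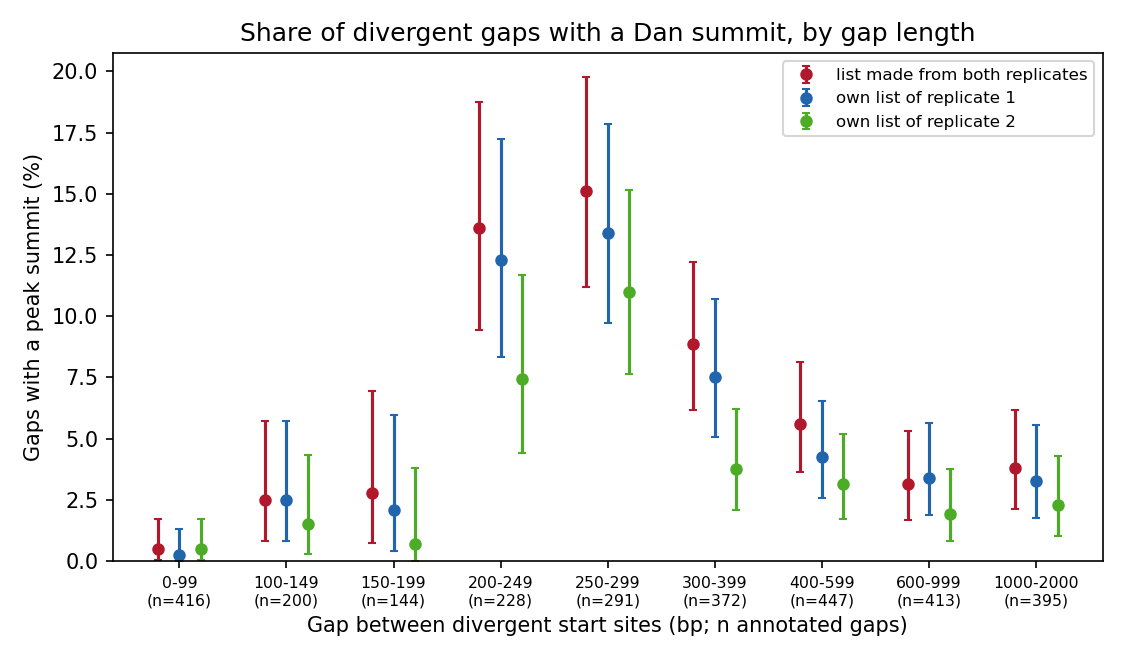
Share of annotated divergent gaps that hold a peak summit (y, percent) by gap length (x, bp), in the list made from both replicates and in the own list of each, with 95% exact binomial intervals. All 3 lists are highest at 250 to 299 bp, with 15.1% in the list of both replicates, 13.4% in replicate 1 and 11.0% in replicate 2.

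Gene families were read off by symbol and chosen with earlier results known. Among mitochondrial ribosomal protein genes with a divergent start, 7 of 59 were in a pair with a peak (11.9%, interval 4.91% to 22.9%), against 7.35% of all 5632 protein-coding genes with such a start. The signals at the 4 strongest were 717 at mRpS10, 625 at mRpS23, 462 at mRpL23 and 416 at mRpL41. Among cytoplasmic ribosomal protein genes 3 of 58 were (5.17%), RpL32 with a signal of 185, RpL34b with 145 and RpL10Ab with 72.7. Among aminoacyl-tRNA synthetases 3 of 25 were (12%), GluProRS with 256, SerRS with 201 and ThrRS with 101. All of these intervals include the background share. That share, 414 of 5632, counts genes of the 44 members with another protein-coding start between. Gaps of up to 2000 bp between neighbouring starts have 5627 genes. Genes with and without a peak may thus not be counted by the same rule.

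Each of the following 8 lists had at most 4 genes with a peak, and its interval includes the 7.35% of all genes with a divergent start. MED27 (246), Taf5 (103), MED17 (95.4) and MED30 (91.6) made 4 of 30 Mediator and TAF genes (13.3%, interval 3.76% to 30.7%), and Polr2H (242) and Polr2B (84.2) made 2 of 19 polymerase genes. The ESCRT and Vps list had 3 of 21, with CHMP2B (764), Vps36 (126) and Vps50 (95.8). Complex I had 3 of 23, ND-ASHI (140), ND-MWFE (137) and ND-24 (91.0). The proteasome had 1 of 30, Rpn5 (84.5). Replication had 2 of 18, PolD2 (286) and RnrS (139), nucleoporins 2 of 18, Nup98-96 (101) and Nup93-2 (78.6), and splicing factors 2 of 29, SNRPG (111) and Sf3b6 (96.4).

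The list of mitochondrial and peroxisomal import had 5 of 17 (29.4%, interval 10.3% to 56.0%), and all 5 were peroxins, which build peroxisomes or import their enzymes. Pex10 (148), Pex23 (140) and Pex6 (103) each shared a peak with a gene outside that list, and Pex16 and Pex14 shared 1 peak with a signal of 83.2, the only pair with both genes in 1 list. With these counted once the share was 4 of 16 (25%, 7.27% to 52.4%), an interval that reaches the 7.35% of all genes. Peroxins alone, a group chosen after these values were seen, had 5 of 12. No ATP synthase or cytochrome oxidase gene of 19, chemoreceptor or odorant-binding gene of 50, cuticle gene of 29 or P450 gene of 22 with a divergent start had a peak there, which allows shares of up to 15.8%, 6%, 10.3% and 13.6%. Of the antennal, eye and neuroblast genes 4 have a divergent start and 0 had a peak, and none of the 35 segmentation and homeotic genes has a divergent start.

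**Figure D4:**
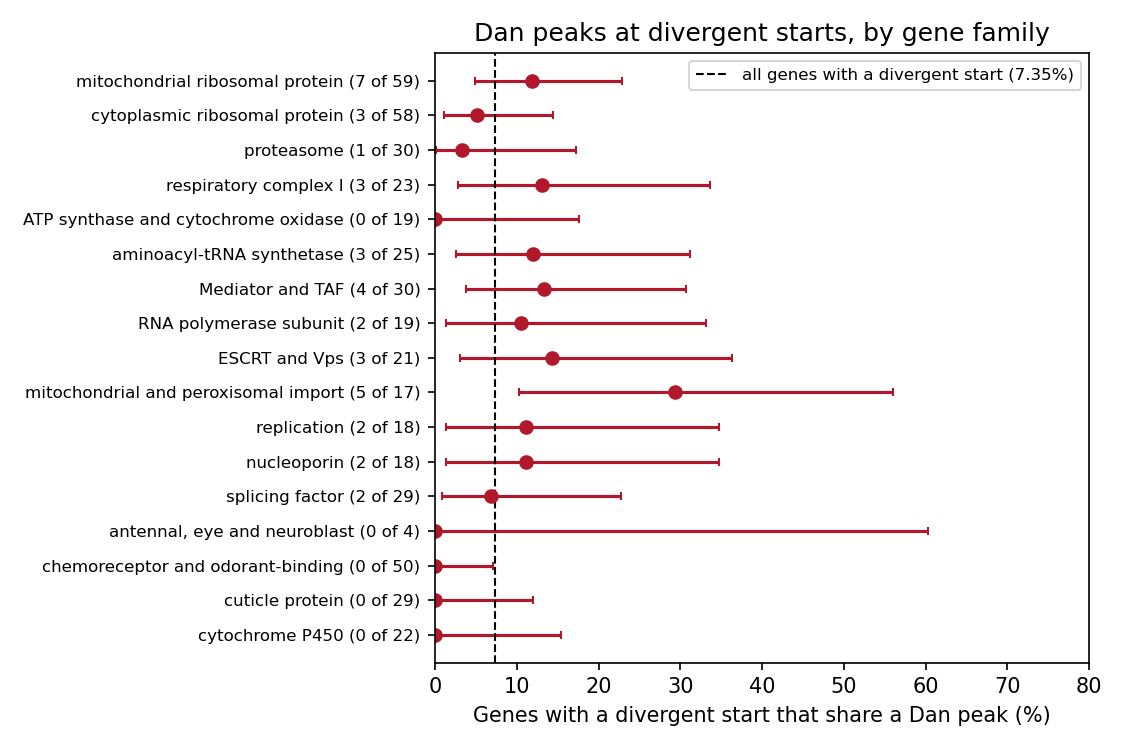
Share of genes with a divergent start that are in a pair with a Dan peak (x, percent) in each family (y, with counts), with 95% exact binomial intervals and the share over all such genes as a dashed line at 7.35%. Mitochondrial and peroxisomal import is highest at 29.4%, with an interval above the dashed line that reaches it, at 7.27%, once the genes of the shared Pex16/Pex14 peak are counted as 1.

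Members had a pronounced dip in GC content at the summit. Within 100 bp of the summit GC averaged 32.9% ± 5.42 (SD over 209 regions) in members, 38.6% ± 9.59 in 363 single-start peaks, 42.4% ± 10.3 in 729 peaks away from starts and 42.9% ± 9.55 in 915 weaker regions under the same rule. In windows of 23 bp GC was 27.6% at the summit of members, against 34.0% in single-start peaks, 39.8% in peaks away from starts and 43.0% in weaker regions. At 110 bp to the left and right it was 40.3% and 42.7% in members. Gaps with no peak are also poor in GC at their midpoint: in gaps of 200 to 400 bp it was 29.8% ± 5.36 in 108 gaps with a peak and 31.3% ± 7.28 in 785 without. Between the strongest and the weakest of the 4 blocks of members by signal, mean GC differed little, at 32.7% and 32.8%.

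**Figure D5:**
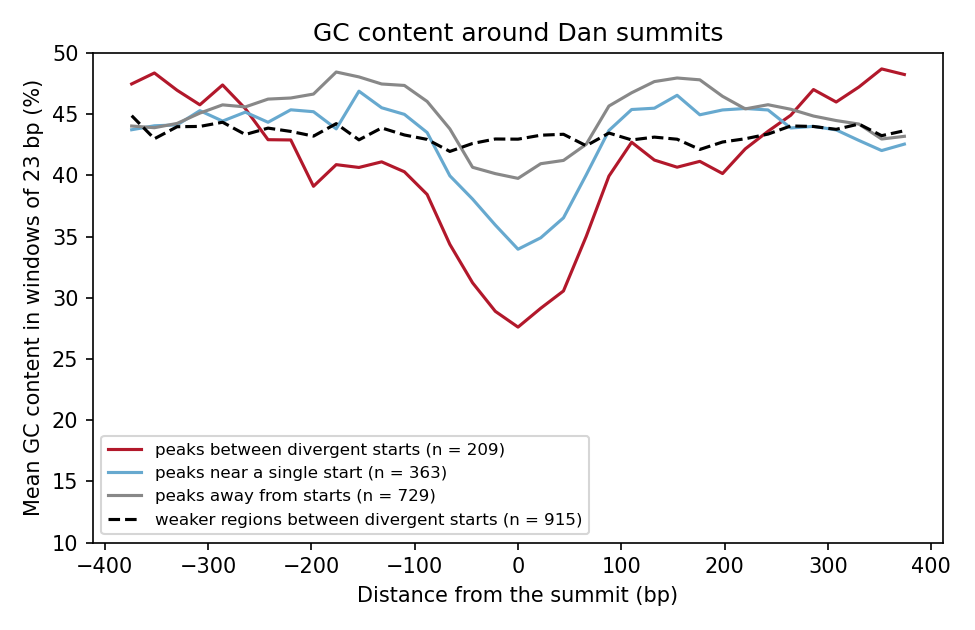
Mean GC content in windows of 23 bp (y, percent) by distance from the summit (x, bp), for peaks between divergent starts, near a single start and away from starts, and for weaker regions between divergent starts. The curve of the divergent-start peaks falls lowest, to 27.6% at the summit, and the curve of the weaker regions is flat near 43.0%.

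A list of 20 short strings was searched on both strands within 100 bp on each side of the summit. No difference between the sets was tested. The nearest protein-coding start of any gene was a median of 103 bp from the summit in members and 300 bp in single-start peaks. The window thus reaches bases near a start less often in single-start peaks. The Motif 7 core was in 11.5% of members (interval 7.5% to 16.6%), 2.75% of single-start peaks, 1.23% of peaks away from starts, 4.59% of weaker regions and 2.80% of the midpoints of peak-free gaps of 200 to 400 bp. In members it moved to 2.87% within 50 bp of the summit and 19.6% within 150 bp. GAGAGA was in 1.91% of members (4 of 209, 0.524% to 4.83%), 13.2% of single-start peaks (9.91% to 17.1%), 12.5% of peaks away from starts, 7.54% of weaker regions and 4.2% of those midpoints (2.91% to 5.85%), so its interval in members overlaps that of the midpoints. The DRE string TATCGATA, which contains CGATA, was in 3.83% of members, 0.826% of single-start peaks, 4.92% of weaker regions and 7.52% of the midpoints. GGTCACAC, the core of Motif 1, was in 3.35%, 0.551%, 2.84% and 3.06% of the same sets. These shares in members also depend on the window. Within 50 bp of the summit the DRE, the Motif 1 core and GAGAGA were in 0 of 209 members (up to 1.44%), and within 150 bp in 8.61%, 13.4% and 3.83%.

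For strings of A and T, the shares within 100 bp of the summit in members were above those in other peaks. They were closer to those at the midpoints of gaps without a peak. TATAAA was in 47.8% of members, 34.4% of single-start peaks and 26.4% of weaker regions, but in 46.0% of the peak-free midpoints. A run of AAAAAA was in 52.6% of members, 38.6% of single-start peaks, 29.6% of weaker regions and 47.4% of the midpoints, and ATATAT in 34.9%, 22.6%, 13.3% and 29.3%. TATAAA and ATATAT can share bases. CAGTG, a string from an earlier analysis of these data, was in 43.1% of members, 49.3% of single-start peaks, 57.8% of peaks away from starts, 38.6% of weaker regions and 26.6% of the midpoints. Its interval in members (36.3% to 50.1%) overlaps those in single-start peaks (44.1% to 54.6%) and weaker regions (35.4% to 41.8%). It lies below that in peaks away from starts (54.1% to 61.4%). At the midpoints of 108 gaps of 200 to 400 bp with a peak, CAGTG was in 35.2% (26.2% to 45.0%). That interval overlaps the one of the peak-free midpoints (23.6% to 29.9%).

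Over the whole stretch between the starts, in gaps of 190 to 400 bp between neighbouring starts, Motif 7 was in 26 of 136 members (19.1%, 12.9% to 26.7%) and 65 of 812 gaps without a peak (8.00%, 6.23% to 10.1%). The DRE was in 10.3% of members and 19.5% of gaps without a peak. AAAAAA was in 66.9% of members (58.3% to 74.7%) and 54.1% (50.6% to 57.5%) of gaps without a peak, intervals that do not overlap. TATAAA was in 57.4% and 52.8% of the same sets, and ATATAT in 39.0% and 35.1%. CAGCTG, an E-box, was in 28.7% of members (21.3% to 37.1%) and 16.3% (13.8% to 19.0%) of gaps without a peak. Within 100 bp of the summit it was in 8.61% of members, 7.44% of single-start peaks, 9.19% of peaks away from starts, 13.7% of weaker regions and 7.52% of the midpoints. Motif 7 matches in members lay a median of 35.5 bp from a start and 108 bp from the summit, so most are away from the base at which the signal is highest. DRE matches lay 14.5 bp from a start in members and 36.5 bp in gaps without a peak.

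The other 3 strings were picked after the sequences of the strongest members had been read, so their shares are a description of those members and carry no test. AGGGG was in 40% of the whole gaps of the 40 strongest members, 19.8% of the other 96 and 13.7% of the 812 gaps without a peak. CTACNCC was in 30.0%, 7.29% and 2.83% of the same sets, and AAATTAAT in 32.5%, 22.9% and 9.98%. Within 100 bp of the summit, where the choice was not made on single-start peaks, AGGGG was in 37.5% of the 40 strongest single-start peaks (interval 22.7% to 54.2%) and 19.6% of all 363, and CTACNCC in 15.0% (5.71% to 29.8%) and 7.71%. AAATTAAT was in 10% of these 40 and 7.44% of all single-start peaks. In the 40 strongest peaks away from starts AGGGG was in 27.5% (14.6% to 43.9%) and CTACNCC in 7.5%, against 21.1% and 5.62% of all 729. In the same window AGGGG was in 45% of the 40 strongest members and 17.7% of all 209 (12.8% to 23.6%). CTACNCC was in 25% and 7.66% (4.44% to 12.1%). Over all members both shares were therefore near those in all single-start peaks. AAATTAAT was in 25% of the 40 strongest members and 21.1% of all members (15.7% to 27.2%). Of the 5 stretches printed above, CG7601/CIA30 holds AGGGG alone of these strings. Art3/mRpS10 holds it together with AAATTAAT. The Tcs5/CHMP2B stretch holds 2 matches of it and 1 of CTACNCC, the only string of the set in CG3437/CG3552. Atat/Shc has 1 match of AGGGG and the Motif 7 core. AGGGG and CTACNCC matches lay a median of 50 and 48.5 bp from the nearer start, while AAATTAAT matches lay 36.5 bp from the summit.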

How the data were processed

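Peak lists from 2 ChIP-seq replicates of 1 group were used, on dm6 per the labels. The authors deposited, per replicate and for both together, ranked regions and thresholded peaks, at most 350 bp wide in the list used. The deposited signal is the peak caller's value against a control, with no stated scale. The deposited score is scaled from the IDR, which measures how well ranks of regions match between sets of calls, and was at least 830 in the list. The authors' deposited −log10 q column served only as an alternative ranking, and the global IDR score of −log10 type ranked regions below the threshold. The authors' summit offset placed each summit. The sources used here name no aligner, caller or version. The 4 signal columns of the lists of both replicates that name no sample were not taken as values of either replicate.

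All 1396 peaks of the list have the same place in 1 of the ranked lists, which was taken as their background. How it combines the replicates is not stated. Replicate values are those of the strongest overlapping region (at least 1 bp). Starts came from Ensembl release 115 (BDGP6.54) and sequence from RefSeq Release 6; no peak ended past a reference arm. Of 1132 ranked regions under the rule, 209 are the members. Of those below the threshold, 8 overlapped a listed peak and were left out of the weaker regions. Strings and families were read from fixed lists, and members, lists and rules were chosen with earlier results of these data known. Named genes are the 20 strongest members, the 3 on each side of the 1000 bp limit, up to 4 per family, those with the largest replicate differences, the shortest and longest gaps, the shared pairs and the strongest in neither own list. A few members that these rules name are not reported here. Regions are not replicates, so no test was run. Shares have 95% exact (Clopper-Pearson) binomial intervals, with 3 counts as the limit where none was seen. Scripts used Python 3.11.15, pandas 2.3.3, numpy 2.4.6 and scipy 1.17.1, and were tested on simulated positions and sequences. Alternatives were the distance limit, start set, list, threshold, overlap, window and each replicate alone.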

Additional observations from a re-analysis of the deposited data

How the results depend on the processing

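The number of members moved to 107 at an IDR of at most 0.001, and ran from 121 to 188 in the own lists of the replicates. Their share of peaks on the arms, 16.1%, became 14.0% with a limit of 500 bp, 18.4% with 2000 bp, 11.1% with the most upstream start of each gene only, 12.7% with the nearest starts required on both sides, 18.2% in the conservative list, 22.9% at an IDR of at most 0.001, and 18.8% to 22.5% in the own lists. The median signal became 125 at 500 bp, 119 at 2000 bp and 128 in the conservative list, and 54.8 to 68.6 on the replicates' own scales. The median percentile by signal, 66.2, became 67.6 at 500 bp and 63.8 in the conservative list, and 63.8 to 66.8 within a replicate. The distance to the nearer start became 107 bp at 500 bp, 113 bp at 2000 bp and 111 bp in the conservative list, and 106 to 107 bp in the own lists. The distance to the farther start became 184, 213 and 203 bp under the same settings, and 193 to 194 bp in the own lists. Members in the list of replicate 1 fell to 74.2% with an overlap of at least 50% of both intervals. Gaps holding a summit became 6.89% of gaps up to 500 bp, and 3.44% to 5.16% in the own lists.

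Of the 20 string shares, 17 moved beyond their interval within 50 bp of the summit, 11 within 150 bp and 1 in the conservative list. A shorter window lies inside a longer one, so a share could only fall within 50 bp and rise within 150 bp. The other sets were not searched at these windows, so the moves do not bear on differences between sets. The mean GC content, 32.9%, became 29.2% within 50 bp and 35.6% within 150 bp of the summit. No paired analysis was possible because the series has 1 group. For counts, shares, distances and gaps, leaving out 1 replicate leaves the other's own list. That list was thresholded separately, so those values also differ in their selection. The median signal and percentile within a replicate are instead those of the same members, still selected by the list of both replicates. The depth of each library, the scale of the signal and the control's content limit all comparisons of strength, and embryos without the fusion were not analysed here. Matching of strings and families by fixed letters and symbols misses other members.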
